A study of Mus musculus with 8 samples.

Results

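Fibrillar collagens and mesenchymal markers are described here through 10 genes, Col1a1, Col1a2, Col3a1, Col5a1, Col6a1, Col6a2, Thy1, Tagln, Acta2 and Fbn1. They were taken by name from the gene names of the array, as every probe that was not a control spot and carried one of these names, which gave 10 of 36406 gene names and 10 of 55681 probes, 1 probe a gene. RNA was taken on day 6, while mouse embryonic stem cells (ESC) were being induced toward neural progenitor cells (NPC) that the labels call RGC-like. The KD d6 group is 4 samples of cells that the design text calls shZrf1, with a short hairpin RNA against Zrf1 (Dnajc2 in current annotation), and the Control d6 group is 4 samples of shCtrl cells. The cell line, the hairpin vector and whether each group is 1 clone or several were not stated in the labels or the design text. The labels do not say that replicates came from separate cultures, so the p-values below measure only the spread between these samples, which may be technical.

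Collagens I, III and V assemble into the striated fibrils of connective tissue. Collagen I is built from the chains of Col1a1 and Col1a2, and collagen V, to which Col5a1 contributes, sits within collagen I fibrils and governs their start and width. Collagen VI, with chains from Col6a1 and Col6a2, forms beaded filaments around cells, and Fbn1 encodes fibrillin-1, the backbone of microfibrils. Thy1 is a surface glycoprotein of fibroblasts and mesenchymal cells that T lymphocytes and neurons also carry. Tagln (transgelin, SM22) and Acta2 (smooth muscle alpha actin) belong to the contractile cytoskeleton of smooth muscle and myofibroblasts, and both are textbook targets of serum response factor, which binds the CArG box.

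Promoter sequence was read for the genes where a table held it. RefSeq promoters on GRCm38.p6 were found for 7 of the 10 genes, with 8 starts in all, and 250 bases upstream of each start were searched on both strands for the CArG box with 1 C or G allowed in its core. The other motifs searched were TATAAA, the basal TATA element, then CCAAT, the box of that name, and lastly GGGCGG, the GC box. Acta2 is printed for its CArG boxes, and Col5a1 and Col1a2 as a collagen gene that passed the test and one that did not. Capitals mark the motif matches, and each sequence runs 5′ to 3′ along the gene.
Acta2 promoter, chr19:34255374-34255623 (minus strand): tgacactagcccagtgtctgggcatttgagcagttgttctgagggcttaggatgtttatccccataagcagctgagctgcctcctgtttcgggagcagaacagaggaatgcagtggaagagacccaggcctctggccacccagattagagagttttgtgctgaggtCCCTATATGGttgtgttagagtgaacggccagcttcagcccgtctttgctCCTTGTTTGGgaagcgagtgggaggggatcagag
Col5a1 promoter, chr2:27886175-27886424 (plus strand): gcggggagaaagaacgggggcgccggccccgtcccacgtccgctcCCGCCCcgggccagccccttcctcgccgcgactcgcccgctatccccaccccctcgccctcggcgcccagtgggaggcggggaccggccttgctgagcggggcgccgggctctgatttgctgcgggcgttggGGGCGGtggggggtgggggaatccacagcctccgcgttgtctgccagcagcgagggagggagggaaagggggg
Col1a2 promoter, chr6:4505368-4505617 (plus strand): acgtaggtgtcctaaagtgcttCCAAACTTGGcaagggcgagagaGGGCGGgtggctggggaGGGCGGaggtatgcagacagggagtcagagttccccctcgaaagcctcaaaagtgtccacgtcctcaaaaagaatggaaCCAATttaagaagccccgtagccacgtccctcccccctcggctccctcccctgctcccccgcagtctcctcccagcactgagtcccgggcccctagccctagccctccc
Acta2 held 2 matches to the CArG box, at -84 to -75 and at -34 to -25 relative to the start. Col1a2 held 1, at -228 to -219, besides a CCAAT at -109 to -105 and a pair of GGGCGG. In Col5a1 the matches were GGGCGG alone, 1 on each strand. This form of the CArG box occurred in 8.59% of 32851 promoters of that length, CCAAT in 33.8%, TATAAA in 12.4% and GGGCGG in 32.7%, and a match is a description of letters, not of binding.

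For Col1a1, Thy1 and Tagln no promoter was found, so none was searched for motifs. These genes also had the 3 largest changes. The first 30 of the 60 bases of their array probes are shown instead, since they state which piece of the transcript was measured (mm9).
Col1a1 probe start, chr11:94813115-94813144 (plus strand): tgaccaactgaacgtgaccaaaaaccaaaa
Thy1 probe start, chr9:43856591-43856620 (plus strand): taataccaccactgctacagcatctcaccg
Tagln probe start, chr9:45738127-45738156 (minus strand): ctttgaaggagacccagcccagcctctaca
A level below is the log2 signal of a probe minus log2 of its array's 75th percentile, so that 0 is that percentile. Levels of different probes are not compared as amounts of RNA. Ratios of gene pairs and sums over marker lists do join probes, and in a sum the brightest probes weigh most. A change is KD d6 minus Control d6, tested per probe with limma and called at a Benjamini-Hochberg adjusted p under 0.05 over 29091 tested probes.

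In KD d6 cells 6 of the 10 genes were higher than in Control d6 cells and none was lower. Thy1 was 15.8-fold higher, Tagln 3.74-fold, Col1a1 2.69-fold, Col5a1 2.60-fold, Col6a1 1.84-fold and Acta2 1.21-fold. Col1a2, Col3a1, Col6a2 and Fbn1 did not pass the test. Of the collagen I chains, Col1a1 passed and Col1a2 did not. Of all tested probes 29.0% were called higher and 57.1% in either direction, against 6 of 10 genes here in both counts, so the share called at all lay near that of the array. Called lower were 28.1% of all probes and 0 of the 10. The groups did not overlap for 7 of the 10, all with KD d6 above, beside 54.1% of all tested probes in either direction and 27.4% with KD d6 above. Calls over the array were 50.8% higher, a share that fell to 38.0% when arrays were scaled to their median. The median change of the 10 was 0.61, beside 0.05 for all tested probes. In bulk RNA, more cells of a type and more RNA per cell cannot be told apart.

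Quality was alike across the arrays. Between 53.4% and 60.3% of 59305 spots were well above background, the 75th percentile of signal lay between 483 and 696 intensity units, and all 10 probes were well above background and unsaturated on all 8 arrays. Dnajc2, the target of the hairpin, was 18.3-fold lower in KD d6 arrays, at -2.32 ± 0.23, against 1.87 ± 0.11 in Control d6 arrays (SD, n = 4 each, limma adjusted p = 1.38e-07). Each of the 3 slides held as many KD d6 as Control d6 arrays, so a fit with the slide as a block leaves each change as it is. It called 7 of the 10 genes higher, adding Col6a2. Changes within slides are given in slide order 1, 2, 3.

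**Figure D1:**
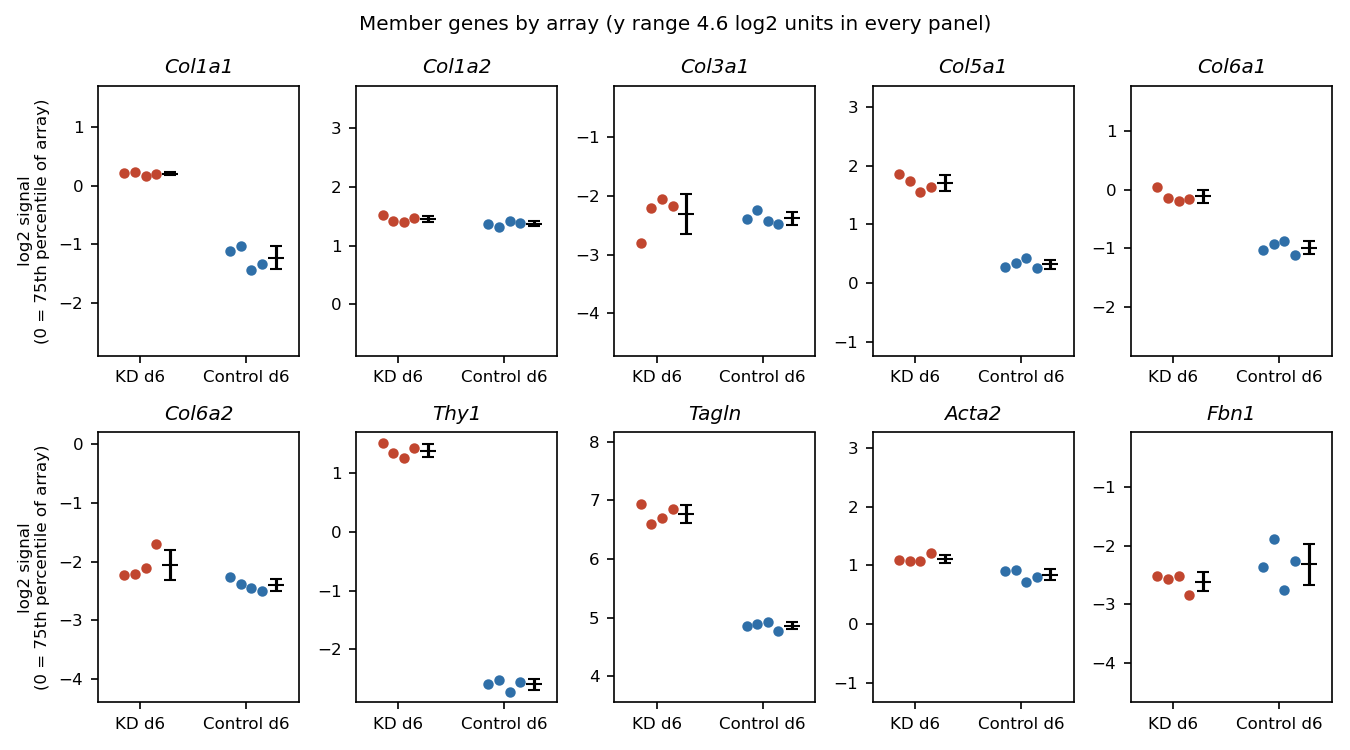
Log2 signal minus that of the array's 75th percentile (vertical axis) for the 10 genes, 1 panel a gene, with 4 KD d6 arrays left and 4 Control d6 arrays right. Points are arrays and the black marks are means with SD bars (n = 4). Thy1 arrays of KD d6 sit between 1.26 and 1.52, and those of Control d6 between -2.72 and -2.53.

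Col1a1, the alpha-1 chain of collagen I, is measured by A_55_P2118520 (NM_007742, chromosome 11 from 94813115 to 94813174, plus strand, mm9). Its log2 signal was 0.21, 0.23, 0.17 and 0.19 in KD d6 replicates 1 to 4, against -1.11, -1.02, -1.43 and -1.34 in Control d6 replicates 1 to 4. The KD d6 arrays lay within 0.06 of each other and all of them lay above the highest Control d6 array. The change was 1.43 (SE 0.10, 95% interval 1.20 to 1.66, limma adjusted p = 6.91e-06), and the within-slide changes were 1.24, 1.59 and 1.30.

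Col1a2, the alpha-2 chain of the same molecule, is measured by A_51_P182303 (NM_007743, chromosome 6 from 4490619 to 4490678, plus strand, mm9). It stood at 1.52, 1.42, 1.40 and 1.48 in KD d6 arrays, against 1.37, 1.32, 1.41 and 1.39 in Control d6 arrays. The groups overlapped, since the Control d6 array at 1.41 lay above the KD d6 array at 1.40. The change of 0.08 did not pass the test (SE 0.06, 95% interval -0.06 to 0.22, limma adjusted p = 0.284). Under quantile normalization it was 0.16 and passed (limma adjusted p = 0.0383), and with arrays scaled to their median its sign turned, to -0.09.

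Col3a1, which encodes the chain of collagen III, is measured by A_51_P515605 (NM_009930, chromosome 1 from 45405589 to 45405648, plus strand, mm9). Its signal was low, -2.80, -2.20, -2.05 and -2.16 in KD d6 arrays, against -2.40, -2.23, -2.43 and -2.47 in Control d6 arrays. KD d6 replicate 1 was below every Control d6 array and the other KD d6 arrays were above them. The change was 0.08 (SE 0.16, 95% interval -0.29 to 0.45, limma adjusted p = 0.710), and without KD d6 replicate 1 it was 0.25 and passed (adjusted p = 0.0449). The sign turned, with no pass, under median scaling (-0.09), under quantile normalization, under normexp with quantile and in the authors' value table (-0.08, -0.08 and -0.09), and without KD d6 replicate 3 (-0.005).

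Col5a1 encodes the alpha-1 chain of collagen V and is measured by A_51_P414637 (NM_015734, chromosome 2 from 27892892 to 27892951, plus strand, mm9). The 4 KD d6 arrays read 1.86, 1.74, 1.55 and 1.64, against 0.26, 0.34, 0.42 and 0.25 in the 4 Control d6 arrays. The groups lay far apart, with no overlap. The change was 1.38 (SE 0.09, 95% interval 1.18 to 1.57, limma adjusted p = 3.75e-06), and it was 1.52, 1.31 and 1.38 within the slides.

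Collagen VI showed a rise of 1 chain that passed the test and a smaller shift of the other that did not. Col6a1 (A_55_P2128153, NM_009933, chromosome 10 from 76171538 to 76171597, minus strand, mm9) read 0.05, -0.14, -0.20 and -0.16 in KD d6 arrays, against -1.04, -0.93, -0.88 and -1.12 in Control d6 arrays. No array of either group reached the other group. Its change was 0.88 (SE 0.09, 95% interval 0.68 to 1.08, limma adjusted p = 4.58e-05), with 0.98, 0.83 and 0.88 within the slides.

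Col6a2 lies next to Col6a1 on chromosome 10 in the RefSeq order of protein-coding genes and is measured by A_51_P279639 (NM_146007, 76058931 to 76058990, minus strand, mm9). It read -2.23, -2.21, -2.11 and -1.69 in KD d6 arrays, against -2.26, -2.38, -2.46 and -2.51 in Control d6 arrays. The groups did not overlap, but the gap between -2.23 and -2.26 was narrow. The change was 0.34 (SE 0.13, 95% interval 0.04 to 0.64, limma adjusted p = 0.0530) and missed the threshold. It passed with the slide as a block (adjusted p = 0.0151), in a test limited to probes that cleared background on every array (adjusted p = 0.0464), and without KD d6 replicate 1 (0.40, adjusted p = 0.0473). The change was smaller, with none of these passing, at 0.17 under median scaling (adjusted p = 0.427), 0.19 under quantile normalization (0.283), 0.13 under normexp with quantile and in the authors' value table (0.337 each), and 0.22 without KD d6 replicate 4 (0.0746).

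Fbn1, the fibrillin-1 gene, is measured by A_51_P467224 (NM_007993, chromosome 2 from 125126727 to 125126786, minus strand, mm9). Its signal was low, -2.52, -2.56, -2.52 and -2.85 in KD d6 arrays, against -2.36, -1.90, -2.76 and -2.26 in Control d6 arrays. The groups overlapped, with Control d6 replicate 3 inside the KD d6 range. The change was -0.29 (SE 0.18, 95% interval -0.70 to 0.11, limma adjusted p = 0.190) and was -0.62, -0.03 and -0.49 within the slides. It passed as lower, with adjusted p between 0.0270 and 0.0298, under median scaling, quantile normalization, normexp with quantile and in the authors' value table, and without Control d6 replicate 3 (-0.44, adjusted p = 0.0318). Without Control d6 replicate 2 the change was -0.15 and did not pass (limma adjusted p = 0.427).

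Thy1 had the largest change of the 10 genes. Its probe is A_55_P2072035 (NM_009382, chromosome 9 from 43856591 to 43856650, plus strand, mm9). The log2 signal was 1.52, 1.34, 1.26 and 1.44 in KD d6 arrays, against -2.59, -2.53, -2.72 and -2.55 in Control d6 arrays. In intensity units this was 1380.1, 1761.2, 1348.4 and 1430.2 in KD d6 arrays, against 110.4, 100.3, 101.5 and 104.4 in Control d6 arrays. Within a group the arrays lay close together, and the groups lay far apart. The Control d6 signal was low, with a mean of -2.60, below the Control d6 means of Col3a1, Col6a2 and Fbn1 (-2.38, -2.40 and -2.32).

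The change of Thy1 was 3.98 (SE 0.08, 95% interval 3.80 to 4.17, limma adjusted p = 5.03e-08), and 4.04, 3.94 and 4.02 within the slides. In size it stood at percentile 99.7 of all tested probes. It was smaller under normexp with quantile (3.19) and in the authors' value table (3.18), and passed in both. The 3 genes whose 8 centred log2 values lay nearest to those of Thy1 by Euclidean distance, of 21750 tested genes, were Hkdc1 at 0.314, Txnip at 0.370 and Timd2 at 0.374. Their changes were 4.00, 3.90 and 3.88. With a group difference this large, the distance mostly finds genes with a change of equal size and says little else about likeness. Txnip, a thioredoxin-binding protein, averaged 6.29 ± 0.07 in KD d6 arrays and 2.39 ± 0.17 in Control d6 arrays (SD, n = 4 each). Timd2 was above background on 0 of 4 Control d6 arrays and was at least 3.78-fold higher in KD d6 arrays, so its distance and its place in this order rest on Control d6 signal at background.

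Tagln, an actin-binding protein of smooth muscle, is measured by A_51_P450527 (NM_011526, chromosome 9 from 45738097 to 45738156, minus strand, mm9). It read 6.93, 6.59, 6.69 and 6.84 in KD d6 arrays, against 4.86, 4.88, 4.92 and 4.78 in Control d6 arrays. Every KD d6 array was well above every Control d6 array. The change was 1.90 (SE 0.09, 95% interval 1.70 to 2.11, limma adjusted p = 9.75e-07), with 2.05, 1.79 and 1.99 within the slides.

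Acta2, the smooth muscle actin, moved far less. Its probe A_52_P420504 (NM_007392, chromosome 19 from 34316060 to 34316119, minus strand, mm9) was spotted 10 times on each array, and 8 to 10 spots an array were kept. The log2 signal was 1.09, 1.07, 1.07 and 1.21 in KD d6 arrays, against 0.91, 0.92, 0.72 and 0.81 in Control d6 arrays. The groups did not overlap, and the change was 0.27 (SE 0.07, 95% interval 0.10 to 0.44, limma adjusted p = 0.0125), with 0.17, 0.31 and 0.30 within the slides. This call ended when arrays were scaled to their median (change 0.10, adjusted p = 0.498), with no filter on dim probes (0.0584), and with the KD d6 arrays averaged in pairs (0.0562).

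**Figure D2:**
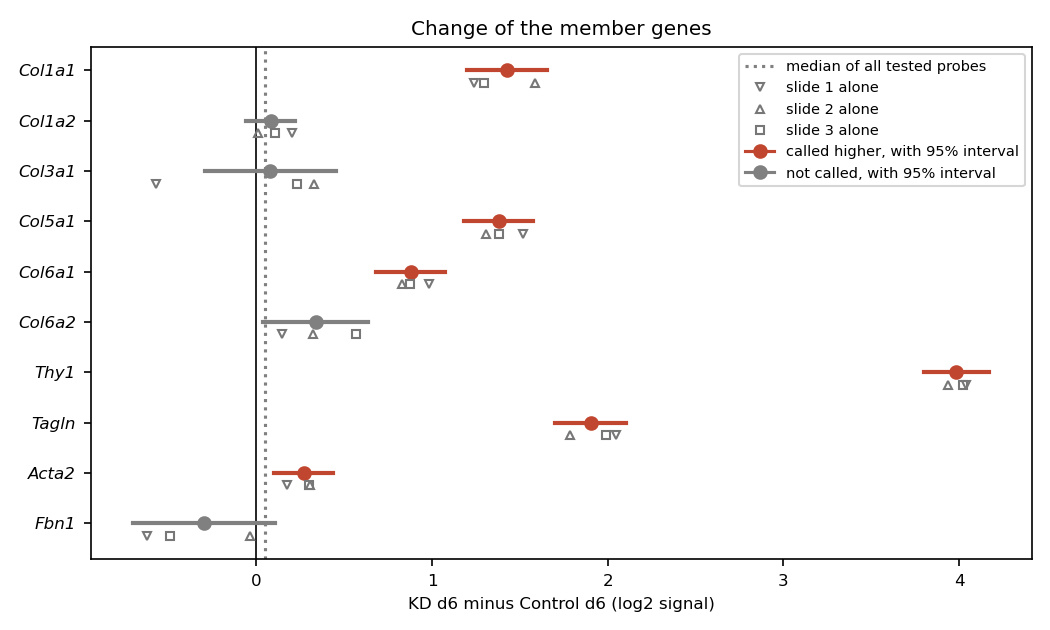
Change of each gene, KD d6 minus Control d6 in log2 signal (horizontal axis), with its 95% interval from limma, red where called higher and grey where not called. Open symbols give each slide alone and the dotted line the median of all tested probes at 0.05. Thy1 lies far from the others at 3.98, and the intervals of Col1a2, Col3a1 and Fbn1 span 0.

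Within each array, the ratio of a pair of genes does not depend on how arrays were scaled to each other by a constant. A log2 ratio of probe signals is not a ratio of molecules. Col1a1 over Col1a2 was -1.26 ± 0.05 in KD d6 arrays and -2.60 ± 0.23 in Control d6 arrays (SD, n = 4 each). The difference of 1.35 had an exact two-sided permutation p = 0.0286, which is the smallest that 4 arrays against 4 allow, and 0.0429 after Benjamini-Hochberg adjustment over the 3 pairs. Tagln over Acta2 was 5.65 ± 0.13 in KD d6 arrays and 4.02 ± 0.12 in Control d6 arrays, a difference of 1.63 with the same exact p and adjusted p. Col6a1 over Col6a2 was 1.95 ± 0.32 in KD d6 arrays and 1.41 ± 0.15 in Control d6 arrays, and the difference of 0.54 did not pass (exact permutation p = 0.0571). It reached p = 0.0286 by the same exact permutation test under quantile normalization, under normexp with quantile, in the authors' value table, and without KD d6 replicate 4. The 3 pairs, and the alternatives tried on them, were chosen after seeing the data, when the changes of these genes were known. The p-values of the ratios therefore describe the pairs and do not test them, and adjustment over the 3 pairs does not correct for that choice.

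**Figure D3:**
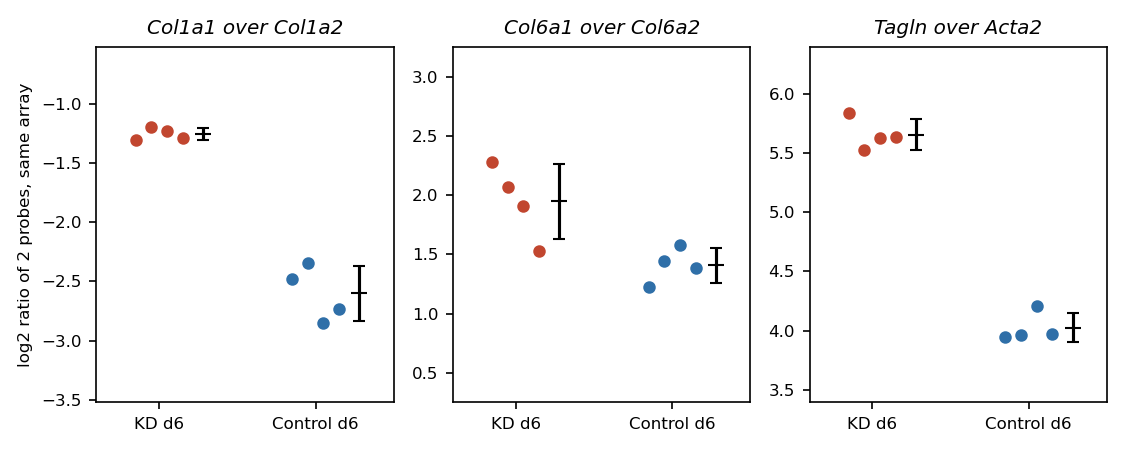
Log2 ratio of 2 probe signals within each array (vertical axis) for Col1a1 over Col1a2, Col6a1 over Col6a2 and Tagln over Acta2, KD d6 left of Control d6. Points are arrays and the black marks are means with SD bars (n = 4). The Col1a1 over Col1a2 and Tagln over Acta2 points do not overlap between groups.

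Other genes of the same matrix were mixed in direction. Of 10 other collagens of fibrils and beaded filaments on the array, 7 were tested, 3 were higher and 2 lower, with a median change of -0.05 whose sign turned under some alternatives (-0.26 to 0.17). Col11a1 and Col2a1, collagens of cartilage fibrils, were 2.84-fold and 2.16-fold lower in KD d6 arrays (limma adjusted p = 5.39e-06 and 2.12e-06). Col11a2 was 1.38-fold higher (limma adjusted p = 0.0131). Col5a2, which pairs with Col5a1 in collagen V and neighbours Col3a1 on chromosome 1, cleared background on 0 of 8 arrays. Col5a3 was called higher and was above background on 2 of 4 Control d6 arrays.

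Of 24 genes for collagen folding, crosslinking and processing on the array, 21 were tested, 8 higher and 6 lower, with a median of 0.19. Under median scaling they were 5 higher and 8 lower, with a median of 0.02. The prolyl hydroxylase subunits P4ha1 and P4ha2 were 2.32-fold and 2.22-fold higher, and Adamts2, which trims the procollagen end, 5.80-fold higher. Bmp1, a procollagen C-proteinase, was 2.61-fold lower by this probe and was called by 1 of its 3 probes. The chaperone Serpinh1 had a change of -0.06 (adjusted p = 0.479). Microfibril and elastic fibre genes were 13 tested of 15, 4 higher and 6 lower, with a median of -0.16 (-0.33 to 0.05 under the alternatives). Mfap4 was 2.56-fold lower and Ltbp2 2.46-fold higher, while Fbn2, the sister of Fbn1, was 2.18-fold lower (limma adjusted p = 0.000242).

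Fibrous matrix proteoglycans and glycoproteins were 11 tested of 14, with 5 higher and 3 lower and a median of 0.32 (0.15 to 0.54 under the alternatives). Ccn1 was 4.23-fold higher and Vcan 4.13-fold lower, while Sparc, a collagen-binding protein, was 2.77-fold higher by 1 of its 2 probes. Fn1 was lower, with a change of -0.44 (limma adjusted p = 0.000553). Smooth muscle contractile genes had 9 higher and none lower among 11 tested of 16, with a median of 1.34. Cnn1 (calponin) was 8.22-fold higher, Tpm1 4.42-fold, Des (desmin) 4.49-fold and Cnn2 2.52-fold. Flna and Vcl had changes of -0.12 and -0.01 and did not pass. Myh11, the smooth muscle myosin heavy chain, and Lmod1 were above background on no array. Mylk, Actg2 and Synpo2 were not tested either, since none had a probe above background on more than 2 arrays of a group. Among the serum response factor and its coactivators, Srf was 1.65-fold higher (limma adjusted p = 0.000198) and Mrtfb 2.18-fold lower, while Myocd was above background on 3 KD d6 arrays and no Control d6 array.

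TGF-beta ligands, receptors, Smads and targets were all 14 tested, 3 higher and 5 lower, with a median of -0.12 (-0.29 to -0.06 under the alternatives). Tgfb1 was 2.52-fold higher, and Tgfbr1 and Smad3 were 3.40-fold and 2.07-fold lower. Of 7 collagen receptors 5 were tested, with Itga11, an integrin of mesenchymal cells, 9.24-fold higher and Ddr1 2.72-fold lower. The median over these receptors was -0.32 (-0.53 to -0.20 under the alternatives). Of 9 genes of collagen breakdown 6 were tested, 2 higher and 4 lower, though the mean of a gene's probes gave 3 higher and 2 lower and averaging the KD d6 pairs gave 2 and 2. Timp2 and Mrc2 each had another probe called higher. The list held Timp3, an inhibitor of metalloproteinases, 7.65-fold higher. Over all 21750 tested genes, each by its brightest tested probe, the median change was 0.04, 29.1% were higher and 28.5% lower. A gene high in 1 group only had to differ in order to be tested, so these shares describe the lists and do not test them.

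**Figure D4:**
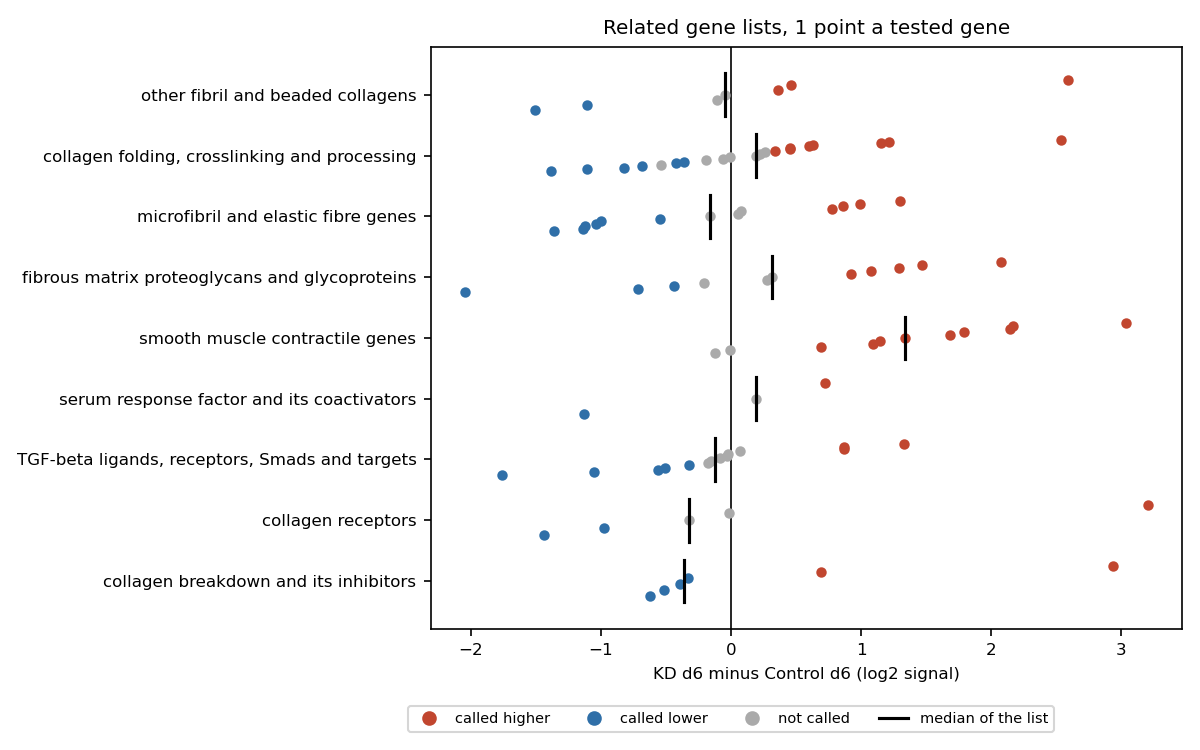
Change of each tested gene (horizontal axis, KD d6 minus Control d6 in log2 signal) in 9 related gene lists, 1 row a list. Red points were called higher, blue lower and grey not called, the height within a row is arbitrary, and the black line is the list's median. The smooth muscle contractile row has 9 red points and no blue one.

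Markers of cell types differed in direction from list to list. Of 14 fibroblast and mesenchymal markers on the array, 11 were tested, with 7 higher and 2 lower. Of the 7, Pdgfra, S100a4 and Tcf21 were above background on 1 Control d6 array each, and the alternatives gave 4 to 8 higher. Their summed linear signal was 27.0 to 30.5 in KD d6 arrays, against 16.3 to 20.7 in Control d6 arrays. Prrx2 and Pdpn, of which Pdpn did not pass, made up 24.1 to 27.5 in KD d6 arrays and 13.8 to 18.2 in Control d6 arrays. The other 9 markers summed to 2.91 to 3.09 in KD d6 arrays and 2.51 to 2.69 in Control d6 arrays. This split was added after the values were seen, and the sums of the other lists were not split. Prrx2 was 2.60-fold and Pdgfrb 1.65-fold higher, Ly6a and Eng were lower, and Fap and Dpt were above background on no array. Cardiac muscle markers were higher in 5 of 5 (3 to 5 under the alternatives; Myl7 was above background on 2 of 4 Control d6 arrays), summing to 4.57 to 5.07 in KD d6 arrays, against 1.32 to 1.51 in Control d6 arrays. Actc1, the cardiac actin, was 8.80-fold higher.

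Endoderm markers were higher in 7 of 7, but 4 of them, Afp, Cubn, Gata4 and Ttr, cleared background on all arrays in KD d6 alone. Among probes above background on every array 3 of 3 were higher, with a median of 0.55 against 2.85 for the 7. The 7 markers had a linear signal summing to 8.39 to 9.21 in KD d6 arrays, against 1.69 to 2.08 in Control d6 arrays. Radial glia and neural progenitor markers were lower in 8 of 9, summing to 32.3 to 34.1 in KD d6 arrays, against 119 to 130 in Control d6 arrays. Vim was counted in this list rather than with the fibroblast and mesenchymal markers, and its change was -1.94 (limma adjusted p = 1.70e-06). Fabp7, a defining marker of radial glia, was above background on 0 of 4 KD d6 arrays and on all 4 Control d6 arrays. The part of these cell types in the changes of the collagens, Thy1, Tagln and Acta2 was not tested.

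Thy1 also marks neurons and T lymphocytes. Neuron markers were 2 higher and 4 lower of 8 tested, with Stmn2 4.75-fold higher and Tubb3 7.52-fold lower. The linear signal of the 8 neuron markers summed to 18.12 to 20.67 in KD d6 arrays, against 12.57 to 15.05 in Control d6 arrays. The sum was thus higher in KD d6 arrays, although more of these markers were called lower than higher. Of 6 T lymphocyte and blood markers 4 were tested, Lck was lower, and Cd3e, Cd3g and Cd4 had changes of 0.28, 1.14 and 0.06 and did not pass. With the slide as a block Cd3e and Cd3g passed as higher (limma adjusted p = 0.0476 and 0.00605) and Cd4 did not (0.537). Cd3g was above background on 2 of 4 Control d6 arrays. The summed linear signal of these 4 markers overlapped between groups, at 8.23 to 11.29 in KD d6 arrays and 9.42 to 13.10 in Control d6 arrays. The part of these cell types in the Thy1 change was not tested.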

How the data were processed

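Total RNA of 4 KD d6 and 4 Control d6 samples was measured on Agilent mouse arrays of design 028005 in 1 colour. Per the labels, 100 ng of RNA a sample was reverse transcribed from oligo-dT, amplified with T7 polymerase and labelled with Cy3. Per the file headers, spot intensity comes out of Agilent Feature Extraction 10.7.3.1, background corrected within arrays and not scaled between them. The deposited value table holds the authors' log2 values. How they were made is not stated, its scale matched a normexp and quantile computation (r at least 0.99998, median 7.10 in each column), and it served as an alternative.

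Outlier and control spots were left out, spots of a probe averaged, log2 taken and each array's 75th percentile subtracted. A probe entered the test if each array of 1 group or the other had it well above background. The test was limma's moderated one (version 3.58.1, lmFit then eBayes, R 4.3.3), two-sided, and was first tested on simulated data. A gene of a list counts by its tested probe with the highest mean. Where a probe was below background in a whole group, the fold is a bound against the higher of its own signal and the lowest signal of probes above background. Names were updated through a RefSeq table: 26300 probes by accession, 2044 by symbol, 355 by synonym, and 26982 kept the file's name. Exon and UTR annotation was not analysed here. Members and lists were chosen with earlier results of these data known. Text names all members, Dnajc2, up to 4 genes a list with the smallest p, markers that moved or lay at background, and the 3 genes nearest to Thy1. Flna, Vcl, Serpinh1, Fbn2, Fn1, Col5a2, Col11a2, Myocd and Myh11 were added after their values were seen, and so were others named as not passing or at background.

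The numbers of the labels do not pair the samples: same-numbered arrays deviated together with r of 0.106, -0.119, 0.113 and -0.192. For KD d6 and Control d6 arrays of the same slide r was 0.113 to 0.320, against -0.260 to 0.106 on different slides. With the slide as a block 17307 probes were called, against 16598 without it. KD d6 arrays share numbers in their file names in pairs. The arrays of such a pair differed by an SD of 0.322 and 0.342 in log2, against 0.260 to 0.366 for other KD d6 arrays.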

Additional observations from a re-analysis of the deposited data

Results flagged for a closer look

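In 2 of the 20 groups of 4 arrays checked, 1 for each gene and group, a KD d6 array stood apart from the rest of its group, and chance gives about 1 in 20. Acta2 was 1.21 in KD d6 replicate 4, against 1.07 to 1.09 in the other KD d6 arrays. Without that array the change of Acta2 was 0.24 (limma adjusted p = 0.0398). Fbn1 was -2.85 in KD d6 replicate 4, against -2.56 to -2.52 in the other KD d6 arrays. Without it the change of Fbn1 was -0.22 (limma adjusted p = 0.375).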

How the results depend on the processing

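Across 20 alternatives, 5 to 8 of the 10 genes were called higher. Thy1, Tagln, Col1a1, Col5a1 and Col6a1 passed in all 20, with changes of 3.18 to 4.03, 1.74 to 1.97, 1.17 to 1.49, 1.21 to 1.44 and 0.68 to 0.92. The 20 are not independent. Each of the 10 genes had 1 probe, so taking 1 probe a gene or the mean of its probes left its change as it was. The authors' value table nearly repeats normexp with quantile. Genes called lower numbered 1, Fbn1, under median scaling, quantile normalization, normexp with quantile and the authors' value table, and 0 to 1 when arrays were left out in turn (1 without Control d6 replicate 3). The cause was not tested. Median scaling moved the median change of all probes to -0.12, against 0.05, and left 38.0% of the calls on the higher side, against 50.8%. Across the alternatives the list median changed sign for the other fibril and beaded collagens (-0.26 to 0.17), microfibril genes (-0.33 to 0.05) and collagen breakdown (-0.53 to 0.31), and the 9 smooth muscle contractile genes called higher were called higher in all 20. The replicate block, which has no pairing behind it, called 15015 probes, against 16598 without it, and 5 of the 10 genes, since Acta2 no longer passed (limma adjusted p = 0.0551). Replicate numbers of arrays and the KD d6 pairs of file names cannot settle how many cultures were grown. The signals of Col3a1, Col6a2 and Fbn1 were low, as was that of Thy1 in Control d6 arrays, and 8 arrays limit the precision.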

Other observations

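Cartilage and bone markers were 4 tested of 6, with Sox9, a regulator of cartilage, 2.82-fold higher in KD d6 arrays (limma adjusted p = 9.15e-06). Acan also passed as higher, with a change of 0.52 (limma adjusted p = 0.0216). Of the cartilage collagens, Col2a1 and Col11a1 were lower and Col11a2 was higher. Ibsp, a bone matrix protein, was above background on no array. Of 5 skeletal muscle markers 2 were tested and both were higher, Acta1 by 5.08-fold and Myh3 by at least 4.18-fold, beside 29.1% of all tested genes. Myh3 was above background on no Control d6 array and entered the test through KD d6 arrays alone. Among probes above background on every array 1 of these markers was tested, and it was higher. Myod1, Myog and Ckm were above background on no array.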
